A study of Mus musculus with 2 samples.

Results

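The immunoglobulin loci of mouse thymus were described here from DNase-seq peaks, that is, stretches of DNA that the enzyme DNase I cut more often than their surroundings, and from footprints, short protected stretches inside such regions. Members were all deposited peaks and footprints that overlapped the mm10 intervals chr12:113254830-116010093 (Igh, the heavy chain), chr6:67555497-70726966 (Igk, the kappa light chain) and chr16:19061618-19260859 (Igl, the lambda light chain). They numbered 273 of 132737 peaks (0.206%) and 607 of 375374 footprints in replicate 1, and 111 of 69798 peaks (0.159%) and 264 of 210014 footprints in replicate 2. Each peak was classed by the type of the nearest GENCODE M21 immunoglobulin segment: V (variable), D-J (diversity and joining) or C (constant).

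Heavy-chain genes are assembled in developing B cells by joining a D to a J segment and then a V segment to the DJ unit, and light-chain genes by joining V to J. The RAG recombinase cuts at recombination signal sequences, which begin with a heptamer directly after the 3′ end of each V segment, followed by a spacer and a nonamer. T cells assemble their receptor genes with the same recombinase, and the V-to-DJ step of Igh is known as a step of the B lineage. An enhancer between the Igh J segments and Ighm (the constant gene of IgM), regulatory elements past the 3′ end of the locus, and sites of the boundary factor CTCF among the V segments, between V and D segments and between the Igk V and J segments are known from B-cell work.

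The samples were 2 libraries of thymus tissue, biological replicates 1 and 2 by their labels. The mice were females of 10 days of age, of strain B6CASTF1/J (an F1 cross of C57BL/6J and CAST/EiJ), and the labels name no treatment. The females are numbered separately in the labels and carry the same donor identifier. There was 1 group and no control tissue, so the values below are descriptions without a test; with 2 paired values an exact permutation test cannot give a p below 0.5. The tissue is a mixture of cells, and fewer cells with an open site cannot be told apart from a less open site in each cell. The mice carry 1 set of CAST/EiJ chromosomes, which was not examined separately. The read number is not given in the sources used here, so no counting interval could be set on a height.

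The labelled tissue was checked by peaks within 500 bp of marker gene starts. All 12 of 12 T-lineage genes (among them Cd3e, Cd4, Cd8a, Rag1, Rag2 and Bcl11b) had one in both libraries, with summed heights of 65.3 in replicate 1 and 64.0 in replicate 2. Of 12 B-lineage genes, 7 and 6 had a start peak (summed heights 19.6 and 14.8), while Cd79a, Fcrla and Ms4a1 had none in either. The 5 with one in both were Ebf1 (5.75 and 3.21), Vpreb1 (4.35 and 5.25), Cr2 (3.96 and 2.22), Pax5 (3.09 and 3.12) and Cd22 (0.996 and 0.550). Of 6 plasma cell genes 4 and 4 had one (12.1 and 11.2; none at Jchain or Tnfrsf17), and of 5 myeloid genes 3 and 2 (2.51 and 1.04; none at Cd14 or Csf1r). For scale, 63.4% and 57.8% of all protein-coding genes had such a peak. The part of B cells in the immunoglobulin peaks was not tested.

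The sequences on which the results turn are shown first, on mm10, read from the RefSeq copy of GRCm38.p6. For the ends of V segments, the last 20 bases of the annotated segment are followed by the next 60 bases on the strand of the segment (minus on chromosome 12, plus on chromosome 6). Capitals mark the heptamer letters CACAGTG and the RUNX letters TGTGGTT on either strand (AACCACA where they lie on the opposite strand). RUNX factors are transcription factors active in T and B cells. The 8 segments with the highest mean peak height over their 3′ end in both libraries were:
Ighv11-1 (chr12:113981819-113981898): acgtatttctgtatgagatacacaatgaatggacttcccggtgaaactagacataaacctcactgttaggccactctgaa
Ighv1-12 (chr12:114615790-114615869): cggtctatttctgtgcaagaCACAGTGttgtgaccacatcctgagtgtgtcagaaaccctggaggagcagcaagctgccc
Ighv1-10 (chr12:114597829-114597908): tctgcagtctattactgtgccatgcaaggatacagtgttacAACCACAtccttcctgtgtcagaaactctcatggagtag
Ighv14-2 (chr12:113994409-113994488): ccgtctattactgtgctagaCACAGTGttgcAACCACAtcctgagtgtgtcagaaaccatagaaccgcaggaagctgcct
Ighv1-11 (chr12:114612183-114612262): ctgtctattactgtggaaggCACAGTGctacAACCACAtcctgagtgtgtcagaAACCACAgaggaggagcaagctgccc
Ighv1-47 (chr12:114991048-114991127): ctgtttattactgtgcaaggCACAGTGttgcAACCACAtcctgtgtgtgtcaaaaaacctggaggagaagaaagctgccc
Ighv9-4 (chr12:114299901-114299980): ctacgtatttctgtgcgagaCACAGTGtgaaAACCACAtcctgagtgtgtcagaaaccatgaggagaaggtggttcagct
Ighv1-85 (chr12:115999968-116000047): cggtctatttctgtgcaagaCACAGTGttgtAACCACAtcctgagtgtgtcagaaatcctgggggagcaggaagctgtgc

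For comparison, the 3 functional Ighv1 segments nearest to the J segments that carried the heptamer directly after their end, with no peak over that end in either library, and the 2 functional Igk V segments nearest to the Igk J segments read:
Ighv1-5 (chr12:114513270-114513349): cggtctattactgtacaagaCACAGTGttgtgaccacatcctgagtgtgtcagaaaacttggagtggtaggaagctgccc
Ighv1-15 (chr12:114657293-114657372): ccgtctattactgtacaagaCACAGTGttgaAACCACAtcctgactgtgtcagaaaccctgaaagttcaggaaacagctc
Ighv1-16 (chr12:114665812-114665891): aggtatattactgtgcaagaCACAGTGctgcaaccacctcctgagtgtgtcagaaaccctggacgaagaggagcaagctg
Igkv3-2 (chr6:70699048-70699127): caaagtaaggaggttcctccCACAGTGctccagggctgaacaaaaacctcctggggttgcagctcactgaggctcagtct
Igkv3-1 (chr6:70704158-70704237): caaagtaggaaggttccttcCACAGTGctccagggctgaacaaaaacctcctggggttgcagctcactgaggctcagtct

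Whole peaks are shown next, on the plus strand, over the span that replicate 1 lists. Here capitals mark the CTCF letters CCNNNAGNNGGC or CCNNNAGNNGG (the second is the first without its last letter), the octamer ATGCAAAT, the E-box CAGGTG and the RUNX letters, on both strands. Shown are the highest peak between the J segments and Ighm, the 2 peaks on the V side of Ighd1-1 (a D segment), the 2 highest shared Igk peaks, and 4 of the 5 highest shared V-class peaks of Igh (the other, chr12:114609281-114609600, exceeds 300 bases).
Ighj4-Ighm (chr12:113427361-113427540): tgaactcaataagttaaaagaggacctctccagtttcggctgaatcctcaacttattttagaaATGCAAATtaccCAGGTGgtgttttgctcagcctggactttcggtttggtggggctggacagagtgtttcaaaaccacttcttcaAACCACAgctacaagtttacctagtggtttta
Ighd1-1 side a (chr12:113485181-113485380): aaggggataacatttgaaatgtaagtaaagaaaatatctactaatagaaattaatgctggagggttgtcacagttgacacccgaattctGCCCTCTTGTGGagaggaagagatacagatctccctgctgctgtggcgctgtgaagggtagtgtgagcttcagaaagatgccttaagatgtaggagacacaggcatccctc
Ighd1-1 side b (chr12:113487781-113488000): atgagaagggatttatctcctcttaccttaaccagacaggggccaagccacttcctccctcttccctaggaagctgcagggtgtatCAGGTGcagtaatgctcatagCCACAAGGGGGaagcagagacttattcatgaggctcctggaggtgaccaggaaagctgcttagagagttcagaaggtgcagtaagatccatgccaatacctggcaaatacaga
Igk V-J a (chr6:70709421-70709600): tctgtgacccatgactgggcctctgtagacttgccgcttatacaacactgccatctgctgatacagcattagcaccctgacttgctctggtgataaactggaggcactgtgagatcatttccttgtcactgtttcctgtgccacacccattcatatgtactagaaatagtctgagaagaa
Igk V-J b (chr6:70714301-70714540): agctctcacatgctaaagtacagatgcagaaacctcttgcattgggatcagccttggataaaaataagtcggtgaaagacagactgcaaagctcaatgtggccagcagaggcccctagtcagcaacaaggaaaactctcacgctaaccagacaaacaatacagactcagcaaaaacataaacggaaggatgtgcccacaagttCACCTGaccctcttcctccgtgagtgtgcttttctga
Ighv1-9 a (chr12:114587341-114587540): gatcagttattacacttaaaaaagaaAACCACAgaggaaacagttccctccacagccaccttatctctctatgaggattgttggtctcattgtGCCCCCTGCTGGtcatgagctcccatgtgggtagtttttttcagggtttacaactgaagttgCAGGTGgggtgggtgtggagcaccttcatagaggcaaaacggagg
Ighv11-1 b (chr12:113981721-113981900): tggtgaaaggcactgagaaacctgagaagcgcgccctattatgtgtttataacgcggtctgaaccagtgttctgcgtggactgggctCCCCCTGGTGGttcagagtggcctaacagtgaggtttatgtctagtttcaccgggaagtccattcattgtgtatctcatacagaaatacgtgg
Ighv1-12 c (chr12:114615261-114615460): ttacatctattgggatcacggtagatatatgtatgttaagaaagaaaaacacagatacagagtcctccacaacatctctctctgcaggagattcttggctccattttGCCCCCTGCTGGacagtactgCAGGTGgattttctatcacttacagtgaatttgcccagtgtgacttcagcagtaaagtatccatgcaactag
Ighv4-2 e (chr12:114012981-114013140): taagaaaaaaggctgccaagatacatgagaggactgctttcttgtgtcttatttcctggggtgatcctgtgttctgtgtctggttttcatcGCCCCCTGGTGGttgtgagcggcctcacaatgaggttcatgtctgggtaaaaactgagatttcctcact

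Igh held most of the immunoglobulin peaks, Igk few for its length and Igl next to none. Igh had 241 peaks in replicate 1 and 100 in replicate 2, or 87.5 and 36.3 per Mb (mean 61.9 ± 36.2, SD, n = 2). Over all chromosomes the libraries had 48.7 and 25.6 peaks per Mb, so that Igh was 1.80 and 1.42 times as dense as the genome. Igk had 31 and 10 peaks, or 9.77 and 3.15 per Mb (mean 6.46 ± 4.68, SD, n = 2), which was 0.201 and 0.123 times the density of the genome. Igl had 1 peak in each library (5.02 per Mb), and these lay at different places. In both libraries Igh thus lay above the density of the genome and Igk below it.

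For scale, the T-cell receptor loci, which are rearranged in thymus, had 134 and 77.4 peaks per Mb at Tcra/Tcrd, 148 and 68.9 at Tcrb and 45.8 and 22.9 at Tcrg. The Igh density therefore lay below those of Tcra/Tcrd and Tcrb and above that of Tcrg in either library. Peaks covered 1.85% and 0.643% of the Igh interval, beside 1.08% and 0.519% of all chromosomes. They covered 0.139% and 0.0445% of Igk.

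**Figure D1:**
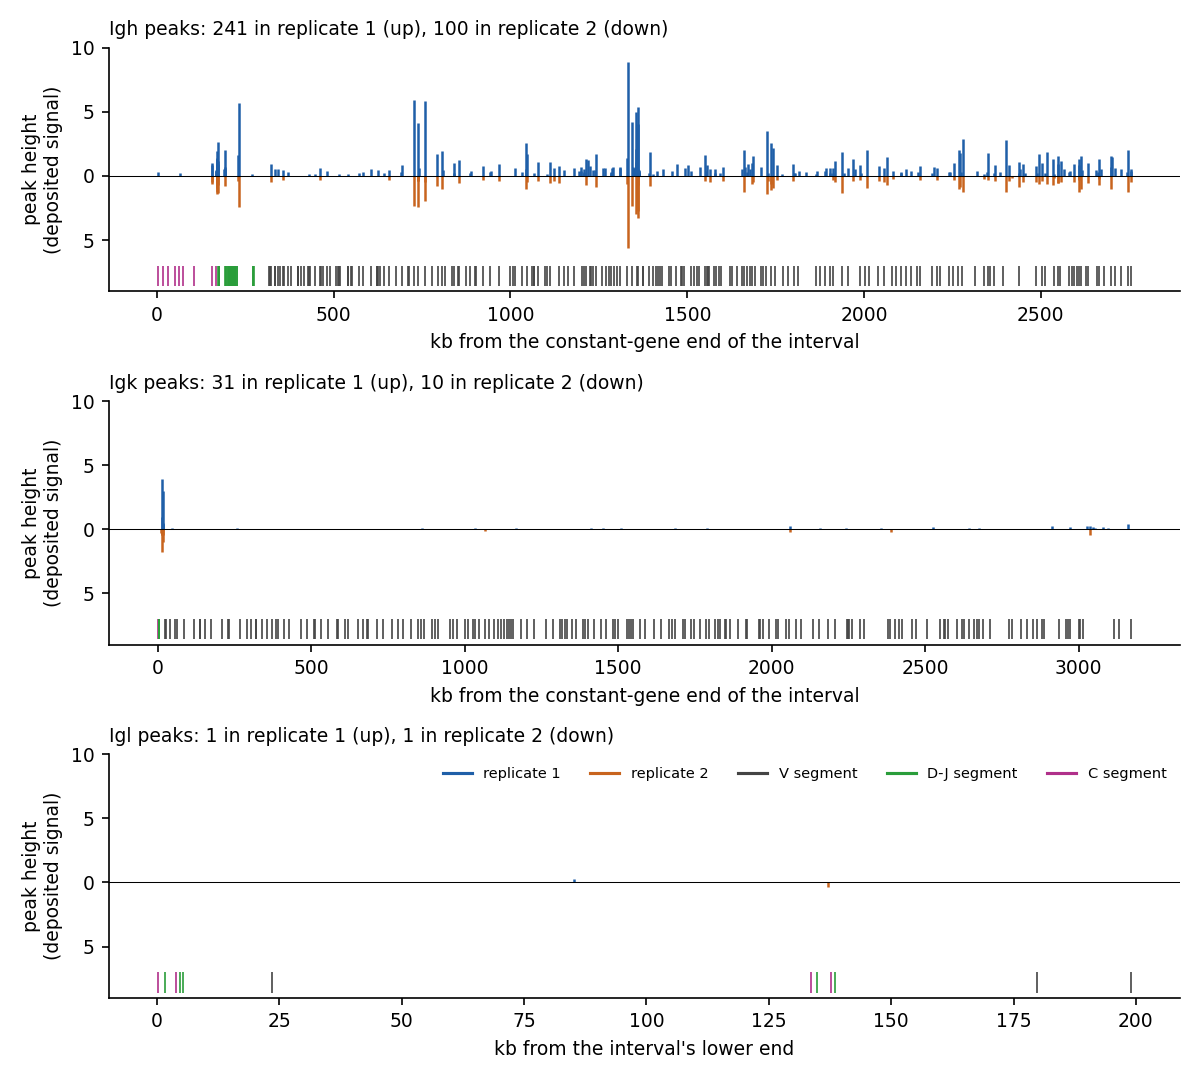
Peak heights along the 3 immunoglobulin loci, in kb from one end of each interval (for Igh and Igk the end with the constant genes), with replicate 1 drawn upward and replicate 2 downward and ticks for V, D-J and C segments. The 241 and 100 Igh peaks spread over the whole V region with the highest at 8.87 and 5.63, whereas the high Igk peaks stand together near the J segments.

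Igh peaks were not higher than other peaks as a group. Their heights ran from 0.0753 to 8.87 with a median of 0.585 in replicate 1, and from 0.185 to 5.63 with a median of 0.579 in replicate 2, beside medians of 0.625 and 0.828 over all peaks. Height is the authors' signal value and is on each library's own scale. Igk peaks of replicate 1 were low, with a median of 0.127 and a maximum of 3.92. The 10 Igk peaks of replicate 2 had a median of 0.429 and a maximum of 1.74.

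Footprints were likewise most frequent in Igh. It held 584 and 248, of which 90.8% and 97.2% lay in peaks of their own library, and Igk held 21 and 15. Igl held 2 and 1. Igk had 6.62 and 4.73 footprints per Mb, beside 138 and 77.1 over all chromosomes.

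The libraries shared most of what replicate 2 listed. Of the members of replicate 1, 94 (34.4%, 95% Wilson interval 29.0 to 40.2) were overlapped by a replicate 2 peak, and over all peaks of that library the share was 43.2%. Of the members of replicate 2, 95 (85.6%, 77.9 to 90.9) were overlapped by a replicate 1 peak, beside 83.2% over all peaks. These intervals cover counting error only, and neighbouring peaks are not independent. By locus, 88 of 241 and 89 of 100 Igh peaks were shared (36.5% and 89%), and 6 of 31 and 6 of 10 Igk peaks. When both libraries were held to their 69798 highest peaks, Igh had 124 and 100 peaks and Igk 3 and 10, so that the Igk order between libraries turned around.

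Within Igh, the V class held 221 of 241 peaks in replicate 1 and 88 of 100 in replicate 2, a mean of 89.9% ± 2.62 (SD, n = 2). Per length the classes differed less. The V region had 8.99 and 3.58 peaks per 100 kb, the D-J class 8.81 and 4.80, and the C class 5.27 and 3.51. In both libraries the C class had the lowest number per length, but in replicate 2 it was close to the V class and rested on 6 peaks. The median height was lowest in the V class, at 0.579 and 0.550, beside 1.16 and 0.730 in the D-J class and 0.857 and 0.771 in the C class. No class of peaks past the last constant gene exists inside the intervals, because they end at that gene.

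Peaks stood close together between the J segments and Ighm. The interval spans 5783 bp (chr12:113422731-113428513) and overlapped 9 peaks in replicate 1 and 7 in replicate 2, with 29 and 27 footprints. Its highest peak in replicate 1, with a height of 2.63, was chr12:113427361-113427540, centred 1063 bp past Ighj4, and replicate 2 had a peak of 1.31 at the same place. The sequence of that peak, printed above, holds the octamer at base 64, an E-box at base 76 and RUNX letters at base 149. The octamer is the letter sequence bound by POU factors such as Oct-1 and Oct-2, and 1.06% and 0.738% of all peaks of the libraries hold it.

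The second cluster of this interval lay farther toward Ighm. Replicate 1 had peaks of 1.91 (chr12:113424701-113426100) and 1.37 (chr12:113424661-113425220) that overlap each other, and replicate 2 had peaks of 1.42 (chr12:113424681-113425560) and 1.25 (chr12:113424581-113425320). This was the highest place of the interval in replicate 2. The class-switch region of Ighm, a repeat-rich stretch where antibody class switching begins in activated B cells, lies between the enhancer and Ighm. The peaks here were broad, up to 1400 bp in replicate 1 and 880 bp in replicate 2, beside a median width of 200 bp over all peaks. Other peaks of the interval ranged from 0.411 to 1.35 in replicate 1 and from 0.440 to 0.944 in replicate 2, and 4 of the 9 and 1 of the 7 were seen in that library alone. Among the shared ones, chr12:113426497-113426980 had 1.16 and 0.672 and chr12:113424467-113424569 had 0.898 and 0.944.

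The J segments themselves, over 1320 bp, overlapped no peak, no footprint and no listed FDR base in either library. Among the constant genes, the 16127 bp from Ighd to Ighm overlapped 3 peaks in replicate 1 and 2 in replicate 2. Of these, the replicate 1 peak chr12:113422527-113422734 (0.492) lay inside Ighm and is also counted in the J-to-Ighm interval. Ighd, the constant gene of IgD, held 2 peaks inside the gene in each library that overlap those of the other, with heights of 0.857 and 0.973 in replicate 1 and 0.597 and 0.481 in replicate 2. From Igha to Ighg3, over 106403 bp that hold the IgA, IgE and IgG genes, there were 2 low peaks in replicate 1 (0.278 inside Igha and 0.208) and none in replicate 2.

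The D region overlapped 7 peaks in replicate 1 and 3 in replicate 2. A peak of replicate 1 alone (chr12:113448168-113448351, 0.510) covered the 3′ end of the D segment Ighd3-2. In the D region 3 peaks were shared. The highest, at chr12:113487781-113488000, had a height of 5.65 and 2.45 and lay 5699 bp on the V side of Ighd1-1, the D segment known as DFL16.1. A second, at chr12:113485181-113485380, had a height of 1.65 and 0.400 and lay 3089 bp on that side. Of these 2 peaks the lower holds the longer CTCF letters at base 90 on the minus strand and the higher only the shorter ones at base 108 on the plus strand. A pair of CTCF sites between the V and D segments is known as intergenic control region 1 (IGCR1), but CTCF binding was not measured here. The third shared peak, chr12:113446121-113446420, had heights of 2.04 and 0.788 and lay 1943 bp past Ighd3-2. Beyond the D segments, the 44872 bp up to the first V segment, which hold Adam6a (a sperm protein gene), overlapped no peak in either library.

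The 3′ ends of V segments were the place around a segment where Igh peaks recurred most, although only 84 of 221 V-class peaks in replicate 1 and 39 of 88 in replicate 2 covered one. A further 91 and 32 lay more than 500 bp upstream of the nearest V segment. Of 197 Igh V segments, a peak covered the last base of 84 (42.6%) in replicate 1 and of 39 (19.8%) in replicate 2, and 38 of these were the same segments. None of 176 Igk V segments had such a peak in either library. The V segments of the T-cell receptor loci had one at 47 and 32 of 178. The share of Igh V segments under a peak was highest 40 bp past the segment end in replicate 1 (45.2%) and 20 bp past it in replicate 2 (20.8%).

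The starts of Igh V segments, where their promoters lie, were covered far less often. Within 100 bp of the start, 6 and 5 of 197 Igh V segments had a peak, beside 71 and 45 of 178 T-cell receptor V segments, and only Ighv1-86 had one in both libraries (0.573 and 0.440). T-cell receptor V segments were under a peak most often 660 bp before their 3′ end, on the side of the start (34.8% and 21.3%). The octamer, a known element of immunoglobulin V promoters, occurred within 250 bp before the start of 129 of 197 Igh V segments (65.5%) and lay under a peak at 4 of them in replicate 1 and 0 in replicate 2. For Igk, 96 of 176 V segments held it, with a peak over 1 and 0.

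With a window of 500 bp around the start, 92 of 376 immunoglobulin V segments had a peak in replicate 1 (24.5%) and 43 in replicate 2 (11.4%). The same window held a peak at 63.4% and 57.8% of protein-coding genes and at 57.3% and 37.6% of T-cell receptor V segments. Igh gave 89 and 42 of these segments and Igk 3 and 1. Since a V segment is short, this window reaches the 3′ end, and it was there that the peaks lay: of the 20 highest segments by this window in both libraries, all but Ighv4-2 had a peak over the last base in both.

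**Figure D2:**
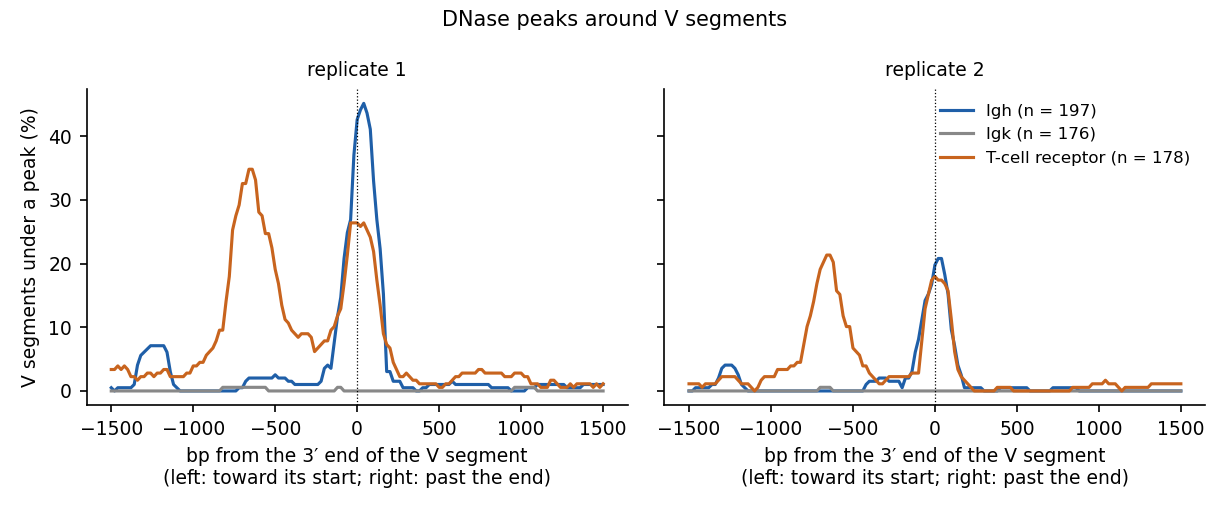
Percentage of V segments under a peak at each distance from the 3′ end of the segment (0, dotted; negative values lie toward the start), for Igh, Igk and the pooled T-cell receptor loci, 1 panel per replicate. Igh has 1 main maximum, just past the end (45.2% and 20.8%), the T-cell receptor loci have a second one at -660 bp (34.8% and 21.3%), and Igk stays near 0.

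By the mean of both libraries the highest peak over a V end was at Ighv11-1, with a height of 5.91 in replicate 1 and 2.38 in replicate 2. Ighv1-12 had 4.04 and 3.26, the highest of replicate 2, the pseudogene Ighv1-10 had 4.21 and 2.36, and Ighv14-2 had 4.11 and 2.45. These 4 segments had the highest end peaks in both libraries. Ighv1-11 (3.67 and 1.94), Ighv1-47 (2.58 and 1.11), Ighv9-4 (2.57 and 1.01) and Ighv1-85 (2.03 and 1.24) followed. Among the next in mean height were Ighv1-39 (2.01 and 1.26), Ighv1-54 (1.89 and 1.36), Ighv14-3 (1.92 and 0.985), Ighv1-77, Ighv1-78, Ighv10-2, Ighv1-82, Ighv1-9, Ighv1-27, Ighv1-81 and Ighv1-73. The lowest of the 38 had 0.191 and 0.266. The medians over all segments with such a peak were 0.643 and 0.695.

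Functional V segments and pseudogenes differed in this share in both libraries. A peak covered the end of 68 and 30 of 115 functional Igh V segments, and of 16 and 9 of 82 pseudogenes. By position, split into 3 parts of like size by order along the chromosome, the part nearest to the J segments had 23 and 10 of 66, the middle part 29 and 12 of 65, and the distal part 32 and 17 of 66. Of the segments with a peak in both libraries 9, 12 and 17 fell in these parts. By family, Ighv1, the largest family, had 44 and 24 of 93, with all 24 of replicate 2 among those of replicate 1. Ighv9 had 4 and 2 of 4, Ighv14 3 and 3 of 4, and Ighv11 2 and 2 of 2. Ighv5 had 6 and 1 of 22, Ighv2 6 and 1 of 11, and Ighv8 3 and 1 of 16. The counts of most families are too small to order them.

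The letters after the V ends differed between segments with and without a peak. The heptamer lay directly after the end (first letter at base 1) of 106 of 197 Igh V segments. The RUNX letters had their most frequent position at base 12 past the end, on the opposite strand, in 62 of 197 segments (31.5%) and in 55 of 93 of family Ighv1, which places them within the spacer between heptamer and nonamer. No other position held them in more than 3 segments. Ighv14-2, Ighv1-11, Ighv1-47, Ighv9-4 and Ighv1-85 above show this arrangement, and Ighv1-12, Ighv1-5 and Ighv1-16 show the heptamer without the full RUNX letters at that place. There Ighv1-12 and Ighv1-5 read gaccaca and Ighv1-16 reads aaccacc, each 1 letter from AACCACA. Such segments count as without the letters, so the counts depend on the exact string.

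Of the 62 segments with RUNX letters at base 12, 46 (74.2%) had a peak over the end in replicate 1 and 25 (40.3%) in replicate 2. Of the 135 segments without, 38 (28.1%) and 14 (10.4%) had one. Between segments with a peak in both libraries and in neither, the direction was the same inside and outside the family that carries most of the letters. In Ighv1, RUNX letters within 100 bp of the end were present at 21 of 24 segments with a peak in both libraries and at 21 of 49 with a peak in neither. In the other families they were present at 5 of 14 and 5 of 63. Of segments with a peak in 1 library alone, 19 of 20 in Ighv1 and 2 of 27 in the other families carried them. Outside Ighv1 the difference was thus confined to the 14 segments with a peak in both libraries. The 3 ends without a peak printed above include Ighv1-15, which carries the heptamer and the RUNX letters and had no peak over its end. V segments of a family are copies of each other and are not independent observations, so these counts carry no test.

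The heptamer within 100 bp of the end was less selective. It was present at 28 of 38 segments with a peak in both libraries and at 54 of 112 with a peak in neither. Igk V segments carried it at 115 of 176 ends without any peak, and carried the RUNX letters at 8 of 176. At T-cell receptor V ends the RUNX letters were present at 9 of 27 segments with a peak in both libraries and at 11 of 126 with a peak in neither. The longer CTCF letters within 100 bp of the end were present at 0 of 93 Ighv1 segments. In the other Igh families they were present at 4 of 14 segments with a peak in both libraries. There they were also at 16 of 27 with a peak in 1 library alone and at 13 of 63 with a peak in neither.

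Footprints at the V ends were found at 44 of 84 (52.4%) and 25 of 39 (64.1%) of the segments with an end peak, counted over bases 1 to 39 past the end. Over bases 12 to 18, a footprint was listed at 16 of 46 segments with RUNX letters there and at 5 of 38 without in replicate 1, and at 7 of 25 and 1 of 14 in replicate 2. These bases were not where footprints were most frequent. Along the 84 and 39 ends, the most frequent position was 60 bases past the end in replicate 1 (25 segments, 29.8%) and 30 bases before it, inside the segment, in replicate 2 (16 segments, 41.0%). The median footprint was 10 bp wide and 9 bp in Igh, and each was searched with 5 bases added on either side. Of all Igh footprints so widened, 4.97% and 5.24% held RUNX letters, beside 0.833% and 0.607% of all footprints of the libraries. CTCF letters of the longer form were held by 8.05% and 5.24%, beside 4.33% and 4.52%. These letters can therefore lie partly outside the footprint itself. The sources used here do not say whether footprints were corrected for the sequence preference of DNase I.

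Peaks over V ends and the other V-class peaks of Igh held different letters. Of the 84 and 39 peaks over a V end, 75% and 74.4% held the heptamer and 57.1% and 66.7% the RUNX letters, beside 6.71% and 5.78% and 8.42% and 5.93% of all peaks. These shares follow in large part from the choice of peaks, since a peak over a V end spans the heptamer: within 100 bp of the end, 60.9% of all 197 Igh V segments, with or without a peak, carried the heptamer and 37.1% the RUNX letters. The 137 and 49 other V-class peaks held the E-box CAGGTG in 43.1% and 59.2%, beside 23.6% and 24.6% of all peaks, and the longer CTCF letters in 30.7% and 36.7%, beside 17.5% and 18.7%. The E-box was rare at V ends, at 2.38% and 5.13%, and the longer CTCF letters were in 22.6% and 12.8% of the peaks there. YY1 letters (AAGATGG), of a factor known to bind the Igh locus in B cells, were in 11.7% and 10.2% of the other V-class peaks and in none over V ends, beside 4.62% and 4.03% of all peaks. Of these other V-class peaks, 88 of 137 and 36 of 49 matched another place at 90% identity or more over at least 80% of their length. Several replicate 1 peaks with YY1 letters also hold the E-box, lie at a similar distance upstream of different V segments and have such near-copies within Igh. Peaks that are copies of each other are not independent observations, so the E-box and YY1 shares carry no test. None of the Igk peaks held the longer CTCF letters.

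**Figure D3:**
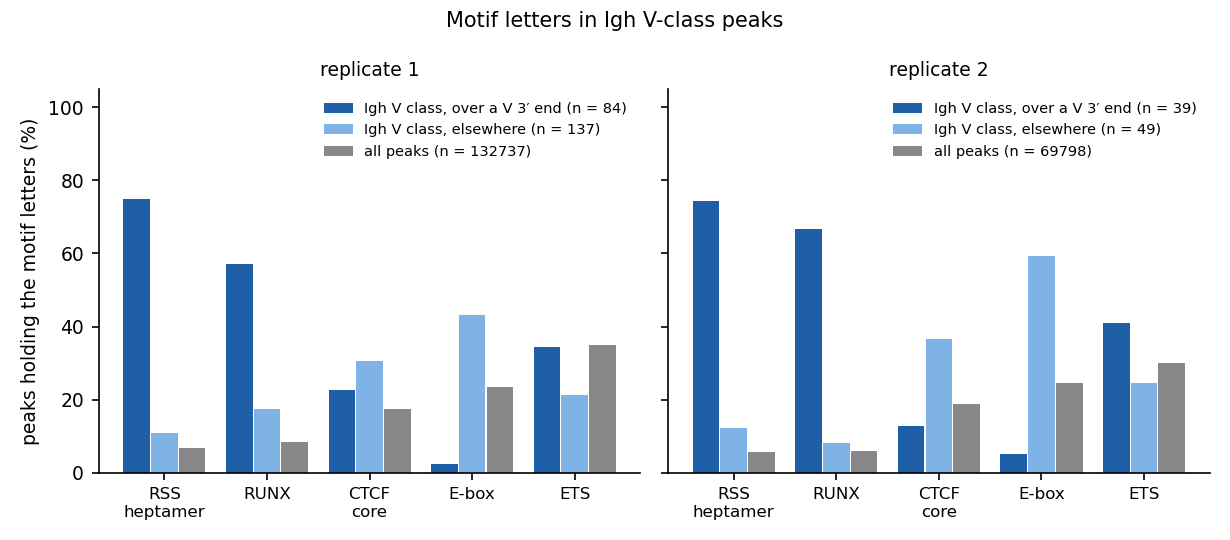
Percentage of peaks that hold each set of motif letters on either strand, for Igh V-class peaks that cover a V 3′ end, Igh V-class peaks elsewhere and all peaks, 1 panel per replicate. The heptamer and RUNX bars are tallest for V-end peaks (75% and 57.1% in replicate 1), which span the recombination signal by their choice, and the CTCF and E-box (CAGGTG) bars for the other V-class peaks.

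CTCF letters lay beside V segments of some families only. Within 200 bp past the 3′ end, the longer letters occurred at 33 of 197 Igh V segments: 11 of 22 of Ighv5, 8 of 11 of Ighv2, 6 of 8 of Ighv3 and 3 of 4 of Ighv7, with 0 of 93 in Ighv1. Of these 33, 28 lay in the part nearest to the J segments. None of 176 Igk V segments had them. In Igh peaks of replicate 1, 50 of 64 matches (78.1%) overlapped a footprint, and in replicate 2 16 of 24 (66.7%), beside 71.5% and 74.4% over all peaks. For RUNX letters in Igh peaks these shares were 35% and 33.3%, beside 26.5% and 29.5%.

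The highest immunoglobulin peak of either library, chr12:114587341-114587540 (8.87 and 5.63), lay 3439 bp upstream of Ighv1-9. It holds RUNX letters, the longer CTCF letters at base 94 on the minus strand and an E-box. The peaks near Ighv1-12 (chr12:114615261-114615460, 5.38 and 2.73) and Ighv4-2 (chr12:114012981-114013140, 5.86 and 1.93) also hold the longer CTCF letters on the minus strand. The peak over the end of Ighv11-1 (chr12:113981721-113981900, 5.91 and 2.38) holds the shorter ones, on the same strand. The fifth, chr12:114609281-114609600 (4.99 and 2.97), lies 2802 bp past Ighv1-11 and holds an E-box and neither form of the CTCF letters. Of these 5, 3 lie between Ighv1-9 and Ighv1-12, where replicate 1 also listed a run of low peaks that replicate 2 did not.

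In Igk the high peaks lay between the V and the J segments. That interval of 18384 bp (chr6:70704178-70722561) held 5 of the 31 Igk peaks of replicate 1 and 6 of the 10 of replicate 2, and 4 of the 6 shared ones in either. The highest was chr6:70714301-70714540, 8141 bp before Igkj1, with a height of 3.92 and 1.74. The next, chr6:70709421-70709600, 5334 bp past Igkv3-1, had 2.94 and 1.01. Lower shared peaks of this interval had 0.927 and 0.458 (chr6:70713241-70713420) and 0.423 and 0.440 (chr6:70709741-70710000). Both high peaks are printed above, and neither holds an exact match to either form of the CTCF letters. Each holds a stretch that departs from the longer letters at 1 base (gccatctgctga in the first printed, ccagcagaggcc in the second), which the search did not count. The lack of an exact match therefore does not show that a CTCF site is absent. This interval is known from B-cell work for the CTCF-bound elements Cer and Sis.

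The remaining Igk members were low. The J segments and the stretch from them to Igkc, where an intronic enhancer is known, overlapped no peak, footprint or listed FDR base in either library. Over the V region only 2 peaks were shared, at 0.220 and 0.417 near Igkv14-134-1 and at 0.249 and 0.238 near Igkv2-95-1. The positions of all 30 V-class Igk peaks of replicate 1 include the V-to-J interval peaks nearest to Igkv3-1. Of the 30, 19 lay over 500 bp past a V segment and 8 over 500 bp before one. A further 2 lay within 500 bp before one, 1 lay within a segment, and none covered a segment end. The 2 Igl peaks had heights of 0.295 (chr16:19146701-19146900, replicate 1) and 0.359 (chr16:19198581-19198820, inside Iglc2, replicate 2).

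Past the last constant gene, outside the intervals and hence not members, both Igh and Igk had high peaks. Within 50 kb of the Igh end there were 10 peaks in each library, all between 30419 and 38699 bp from it, and 9 in each were shared. The highest, chr12:113222121-113222320, had 9.92 and 5.53, above every peak inside the Igh interval in replicate 1 and just under the highest of replicate 2. Within 50 kb of the Igk end there were 6 and 4 peaks, with 4 shared and the highest (chr6:70768861-70769060) at 3.87 and 2.28. Igl had 1 peak of 0.168 there in replicate 1 and none in replicate 2. The 3′ regulatory region of Igh and the 3′ enhancers of Igk are known elements past these ends, and whether the peaks lie at them was not tested.

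Some other annotated genes of the intervals had a peak within 500 bp of their start. In Igh, 9 of 38 had one in replicate 1 and 6 in replicate 2; most of the 38 are pseudogenes or small RNA genes, for which no share over the genome was computed. Gm25747, both entries of Gm24022 and Gm22175, annotated as miRNA genes between the J segments and Ighm, lay under the broad peaks described above (1.91 and 1.42). Mir7094-1 had 1.31 and 0.695 and the long noncoding RNA gene Gm30948 had 2.05 and 0.927. Gm19331, Gm27722 and Mir6388 had one in replicate 1 alone. Adam6a and Adam6b had none. In Igk, the pseudogene 4930515G16Rik had one in replicate 1 alone (0.411), and no other gene that starts inside that interval had one. None of 5 in Igl had one.

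The shared Igh peaks were higher in replicate 1. The log2 ratio of the heights (replicate 1 over replicate 2) had a median of 0.99 over 88 Igh peaks and was above 0 for 85 of them. Over all 57361 shared peaks the median was 0.49, over 157 in the T-cell receptor loci 0.71 and over 6 in Igk 0.54. GC content moved with this ratio: over all shared peaks the median fell from 1.25 below 40% GC to 0.08 above 60% GC. Igh peaks were poor in GC, with a median of 45.6% and 48.8% beside 50.6% and 55.6% over all peaks. Among all shared peaks within the interquartile GC range of the shared Igh peaks (44.5 to 48.4%), the median was 0.93 over 7761 pairs, close to that of Igh.

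**Figure D4:**
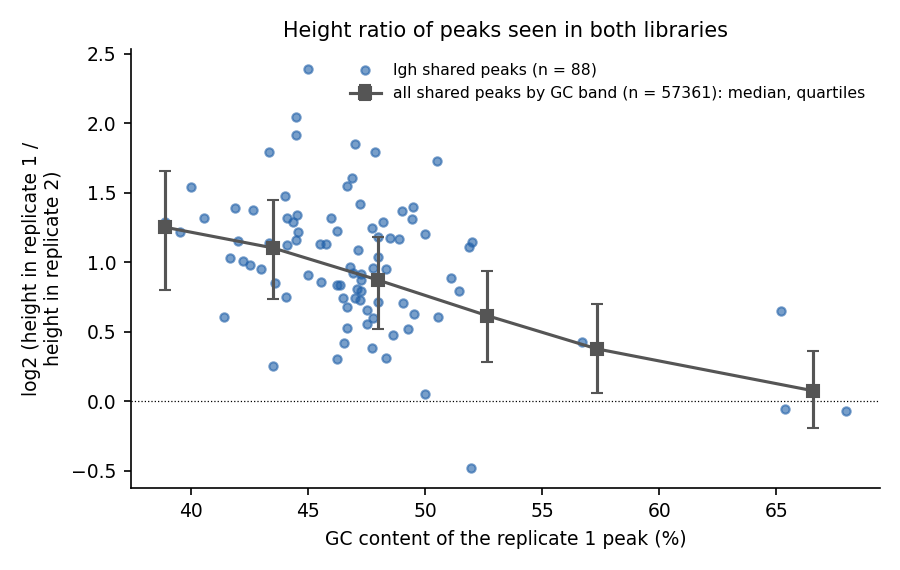
Log2 ratio of peak heights between the libraries against the GC content of the replicate 1 peak, for each of 88 shared Igh peaks (points) and for all 57361 shared peaks as medians and quartiles by GC band (squares). The Igh points lie around the line of all peaks of similar GC content, with a median of 0.99 beside 0.93 for all shared peaks in the same GC range.

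Near-copies are common among the members. Of the Igh peaks, 153 of 241 (63.5%) and 66 of 100 (66%) matched at least 1 other place on the assembled chromosomes at 90% identity or more over at least 80% of their length, and 150 and 63 of them matched another place within Igh. At 98% identity or more this held for 36 and 15. Outside the V class, 4 of 20 and 0 of 12 had a match at the lower limit. The search left out matches that overlap the peak itself and asked for 80% of its length. Repeats within a peak, as in the repeat-rich stretch before Ighm, could therefore not be counted. Of the peaks over a V end, 61 of 84 and 30 of 39 had such a match. The sources used here do not say how reads that match several places were treated, and the part of this in the V-class counts was not tested.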

How the data were processed

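DNase-seq was read in 2 thymus libraries. For each, the authors deposited a pair of peak files with a signal value (the peak height), footprints, and false discovery rates of the cut rate, a kind of p-value listed only below 0.05, all on mm10 and made per library from its own alignments, per the file headers and the README deposited with them. The aligner, the callers with their versions, the read number and the signal scaling are not given in the sources used here. Of each pair, the peak file with more rows was used and the other served as a stricter alternative.

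Members overlap the stated intervals by at least 1 bp. Segments came from GENCODE M21, and sequence from RefSeq GRCm38.p6, whose chromosome lengths match mm10. Each peak took the class of the segment nearest to its midpoint. Peaks within a library that overlap each other were each counted. Peaks of the libraries are shared from 1 bp of overlap. The 3′ end of a V segment is the last base of its gene model, and coordinates are 1-based. Motif letters were searched on both strands: CTCF CCNNNAGNNGGC and CCNNNAGNNGG, octamer ATGCAAAT, E-boxes CAGGTG and CAGCTG, YY1 AAGATGG, kappa B GGGACTTTC, RUNX TGTGGTT, ETS AGGAAG, PU.1 GAGGAAGT, AGATAA for GATA factors, heptamer CACAGTG and nonamer ACAAAAACC. Only exact matches to these letters were counted. The CTCF letters contain each other, as do those of ETS and PU.1. The shorter CTCF letters, the counts at V ends and the letters around them were added after the data were seen. Copies were sought with BLAST+ 2.17.0 (megablast, word size 24). Tables were made with pandas 2.3.3 and pysam 0.24.0. The helper functions were checked on simulated data.

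Named are the peaks outside the V class that both libraries share and the 5 highest shared V-class peaks per locus. Also named are up to 20 V segments with a start peak in both libraries, and other genes that start inside the intervals with a start peak. The remaining peaks of the J-to-Ighm interval are given by their range of heights, and those inside Ighd by height. Members, lists and tests were chosen with earlier results of these data known. The value of 1 marker gene is not reported here.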

Additional observations from a re-analysis of the deposited data

How the results depend on the processing

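Igh peaks per Mb (mean 61.9) ranged from 36.3 to 87.5 when 1 library was left out, Igk (6.46) from 3.15 to 9.77 and Igl stayed at 5.02. The share of Igh peaks outside the V class (10.1%) ranged from 8.30 to 12%, immunoglobulin V segments with a peak near the start (18%) from 11.4 to 24.5%, the highest peak between the J segments and Ighm (2.02) from 1.42 to 2.63, footprints per Mb (71.1) from 43.1 to 99.1, and Igh V segments with a peak over the 3′ end (31.2%) from 19.8 to 42.6%. With both libraries held to their 69798 highest peaks, Igh had 40.6 and Igk 2.05 peaks per Mb, Igl fell to 2.51, and the share of replicate 1 members overlapped by replicate 2 rose to 67.7%. With the stricter peak file, Igh had 44.5 and Igk 2.52 per Mb, Igh V ends with a peak were 22.8%, and the share of replicate 2 members overlapped by replicate 1 was 93.7%. Counting a peak as outside the V class only where it overlaps the span of the D-J or C segments gave 4.99% in place of 10.1%, since a nearest segment can lie outside that span. A window of 100 bp around the V start in place of 500 bp gave 1.60%. The cause of the other changes was not tested. All other alternatives run kept a value within the SD between the libraries, which with 2 libraries is wide. For the shares of overlapped members the limit was the counting interval instead. Leaving out 1 of 2 libraries cannot move a mean beyond that SD, so it could not show a dependence. No paired analysis was possible because there is only 1 group. The number of reads behind a height is not given, so depth limits could not be set, and replicate 1 lists more low peaks.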
